A study of Mus musculus with 30 samples.

Results

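HPCLSK and HPC7, a pair of mouse haematopoietic progenitor lines, were compared at baseline, that is, with a retroviral empty vector named in the labels after its dsRed marker. The members are the 3 HPCLSK and the 3 HPC7 libraries with this vector, chosen by their labels, which is 6 of the 18 RNA libraries and of the 30 samples of the series. Of 50686 genes listed, 13891 passed a filter on low counts and were tested. The HPCLSK empty vector cells are labelled C57BL/6N, the HPC7 empty vector cells 129SV, although the labels of the ChIP samples, made from HPC7 per the series text, give C57BL/6N. Both are called stem or progenitor cells, both were untreated, and both grew in Iscove's medium with fetal calf serum and 2% stem cell factor, the ligand of the receptor Kit. HPCLSK alone was kept on agarose-coated plates. The other 12 RNA libraries carry STAT3, a transcription factor downstream of cytokine receptors, or its activating form Y640F in the same lines. The line difference is also looked at in them, outside the baseline groups. They entered the filter on low counts, the scaling and the shared estimate of spread as well, so they also bear on which genes were tested and called at baseline. The labels give neither age nor sex of the animals behind the lines, and they do not say whether a line is 1 clone.

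Blood progenitors choose between a few lineages, and each choice is read from transcription factors and from the proteins that the mature cell will carry. GATA1 and KLF1 drive red cells, C/EBP alpha and PU.1 drive granulocytes and monocytes, and GATA factors with MITF mark mast cells. HPC7 is a line derived from mouse embryonic stem cells, and HPCLSK was derived from bone marrow cells of the Lin-, Sca-1+, Kit+ gate, which holds stem and early progenitor cells. Both belong to a family of lines made by expressing the LIM homeobox factor LHX2, which keeps progenitors multiplying in stem cell factor.

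The HPCLSK libraries held 13263597, 22154763 and 17069553 counts and the HPC7 libraries 25687081, 23127740 and 34123846. Per the file headers, every HPCLSK library was sequenced on 1 run and every HPC7 library on another. The line, the strain label, the plates and the sequencing run therefore cannot be told apart in any result here. Depth differed too, and with counts thinned to 9537258 per library 2710 genes were called higher in HPCLSK and 1543 lower, with no call reversed. Reads were counted on GRCm38, a C57BL/6J genome, and the effect of 129 sequence differences on counts in HPC7 was not tested. The series text calls the 3 libraries of a group technical replicates, so errors and p-values measure the spread between libraries and not between cultures. On a scaling plot of all 18 libraries the first axis held 94.9% of the variance and separated the lines, and the second held 2.4%. HPCLSK replicate 1 stood apart somewhat from the other libraries of its group (chi-square per degree of freedom 10.4 and 7.76 against 2.46). In HPC7 this was less clear, with 19.91 and 12.54 for pairs with replicate 1 and 10.3 for replicates 2 and 3. HPC7 replicate 2 had the lowest mitochondrial share of its group, 1.898% against 3.188% and 2.879%. Without HPCLSK replicate 1 and HPC7 replicate 1, 3185 genes were higher and 1977 lower in HPCLSK.

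In HPCLSK 3163 genes were called higher (22.8%) and 1891 lower (13.6%), 36.4% of those tested. A call required an edgeR adjusted p under 0.05 and an absolute log2 difference of at least 1, a fold of 2. The median log2 difference over all genes tested was 0.04. The 3 HPCLSK and the 3 HPC7 values did not overlap for 80.4% of the genes tested, so lack of overlap by itself says little about a gene. A log2 difference over 3, a fold of 8, was reached by 1348 of the higher genes (9.70% of genes tested), and one under -3 by 682 of the lower genes (4.91%). Values are CPM, counts scaled by TMM to a common library total, unless another unit is named. Levels of different genes are compared only as CPM per kb of exon length. Of 891 members of the gene lists described here, 682 were tested, and a gene that passed the filter in 1 line alone had to differ, so list counts are descriptions to be read beside the shares over all genes.

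The lines differed widely in Lhx2. Lhx2 had 1210, 1310 and 1360 CPM in HPCLSK and 7.57, 10.0 and 9.15 CPM in HPC7, a log2 difference of 7.18 ± 0.09 (SE, edgeR adjusted p = 3.4e-21). Every HPCLSK library lay far above every HPC7 library. Counts on this gene (chromosome 2 at 38339281 to 38369733 of GRCm38) cannot separate an introduced copy from the endogenous gene. Of the 7 tested genes of the LIM complex, 4 were higher in HPCLSK (57.1%) and 1 lower (14.3%), against 22.8% and 13.6% of all genes tested. Lmo1, a LIM-only cofactor known from T cell leukaemia, had 183, 181 and 184 CPM in HPCLSK and 0, 0.855 and 0.495 CPM in HPC7. Lmo2, the LIM-only bridge of the blood stem cell factor complex, had a log2 difference of 2.03 ± 0.11 (adjusted p = 1.4e-12). The single-stranded DNA binding cofactor gene Ssbp3 was lower in HPCLSK, by -1.40 ± 0.06 (adjusted p = 3.2e-14). The adaptor Ldb1, which LHX2 and LMO2 both bind, stood at 256 ± 15.6 CPM in HPCLSK and 441 ± 11.8 CPM in HPC7 (SD, n = 3 each) and was not called.

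The direction was mixed among genes of stem and progenitor cells. Of 36 tested, 15 were higher in HPCLSK (41.7%), 7 lower (19.4%) and 14 not called, with a median log2 difference of 0.64. Among all genes tested 22.8% were higher and 13.6% lower. Kit, the stem cell factor receptor, had 829, 690 and 711 CPM in HPCLSK and 1290, 1320 and 1230 CPM in HPC7. Kit RNA was abundant in both lines, and its log2 difference of -0.79 ± 0.07 (adjusted p = 6.0e-09) was below the minimum for a call. Cd34, a sialomucin of progenitors, was higher at 2300, 2290 and 2440 CPM in HPCLSK against 652, 619 and 556 CPM in HPC7 (1.94 ± 0.08, adjusted p = 4.4e-14). Ly6a, which encodes Sca-1, was low in both, with 3.05, 3.75 and 4.80 CPM in HPCLSK and 0.965, 1.24 and 0.699 CPM in HPC7 (2.05 ± 0.25, adjusted p = 4.0e-07). The pan-leukocyte gene Ptprc (CD45) had 330, 350 and 350 CPM in HPCLSK and 512, 446 and 450 CPM in HPC7 and was not called. The defining progenitor genes Kit and Cd34 and the leukocyte gene Ptprc were abundant in both lines, which the labels call stem or progenitor cells. RNA of the Sca-1 gene was scarce in the line named after the Sca-1+ gate.

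Several genes of stem cell identity were far higher in HPCLSK. Hlf, a PAR bZIP factor of blood stem cells, had 155, 129 and 139 CPM in HPCLSK and 1.62, 0.941 and 1.11 CPM in HPC7 (6.84 ± 0.20, adjusted p = 3.3e-16). Mecom, the EVI1 gene, had 11, 6.02 and 7.0 CPM in HPCLSK and 1 count in all 3 HPC7 libraries together, a 635-fold ratio (95% counting interval 113 to 25200). The co-stimulatory receptor gene Cd27 had 98.8, 90.4 and 93.8 CPM in HPCLSK and 0 counts in HPC7, at least 2610-fold higher. For such bounds a group at 0 was given 3 counts in sum, and bounds and intervals cover counting error only. Flt3, a receptor of multipotent and lymphoid-primed progenitors, was higher at 52.0, 52.1 and 65.0 CPM in HPCLSK against 2.70, 1.80 and 1.98 CPM in HPC7 (4.71 ± 0.16, adjusted p = 2.7e-15). In the other direction stood Mycn, a MYC family factor, at 2.83, 1.25 and 1.5 CPM in HPCLSK and 51.3, 47.8 and 50.4 CPM in HPC7.

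Among HOX genes, 6 of the 9 tested Hoxa genes were higher in HPCLSK (66.7%) and 0 lower, against 22.8% and 13.6% of all genes tested. Hoxa9, a factor of stem cell self-renewal (chromosome 6 at 52223100 to 52231089), had 156, 139 and 138 CPM in HPCLSK and 0 counts in every HPC7 library, at least 3980-fold higher. Hoxa7 had 25.4, 17.7 and 22.1 CPM in HPCLSK and 0.540, 0.428 and 0.350 CPM in HPC7 (5.63 ± 0.26, adjusted p = 2.1e-12). Of 10 Hoxb genes only Hoxb3 and Hoxb4 were tested, and both were lower in HPCLSK. Hoxb4, known for expanding stem cells when overexpressed, had 0.297, 0.223 and 0.347 CPM in HPCLSK and 6.45, 7.40 and 7.20 CPM in HPC7 (-4.61 ± 0.22, adjusted p = 4.9e-13).

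Genes of the fetal programme were lower in HPCLSK, in 6 of 8 tested cases, with 0 higher. Lin28b, an RNA-binding protein that holds blood progenitors in a fetal state, had 8.48, 8.07 and 7.75 CPM in HPCLSK and 92.1, 83.0 and 95.9 CPM in HPC7 (-3.48 ± 0.10, adjusted p = 2.2e-16). Hmga2, a chromatin protein downstream of LIN28B in fetal stem cells, had 47.6, 41.4 and 49.8 CPM in HPCLSK and 702, 596 and 680 CPM in HPC7 (-3.84 ± 0.11, adjusted p = 1.8e-16). The embryonic globin genes Hbb-y and Hbb-bh1 had 0 counts in HPCLSK and were low in HPC7, at 0.154, 0.0855 and 0.0583 CPM for Hbb-y and 0.618, 0.299 and 0.408 CPM for Hbb-bh1. Endothelial and haemogenic genes, which embryonic blood precursors share, were higher in 2 of 13 tested cases (15.4%) and lower in 6 (46.2%). The shares over all genes tested were 22.8% higher and 13.6% lower. Tie1, an endothelial receptor kinase, had 1.86, 1.16 and 0.867 CPM in HPCLSK and 294, 377 and 339 CPM in HPC7 (-8.07 ± 0.17, adjusted p = 2.3e-18). The VEGF receptor gene Flt1 had 1 count over the 3 HPCLSK libraries and 4.17, 4.87 and 5.74 CPM in HPC7, a ratio of 266 (interval 47.6 to 10500). The endothelial adhesion receptor gene Adgrl4 went the other way, at a mean of 757 CPM in HPCLSK and 0 counts in HPC7. Afp, the fetal serum protein alpha-fetoprotein, had 0 counts in HPCLSK and 25.1, 38.0 and 35.2 CPM in HPC7, at least 582-fold lower in HPCLSK. Of 14 pluripotency genes only Klf2 passed the filter, and it is also widely expressed in blood. Of 10 tested imprinted genes, 1 was higher and 5 lower, with the growth-factor adaptor gene Grb10 at 2.23, 3.52 and 3.24 CPM in HPCLSK and 44.7, 32.2 and 32.9 CPM in HPC7.

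**Figure D1:**
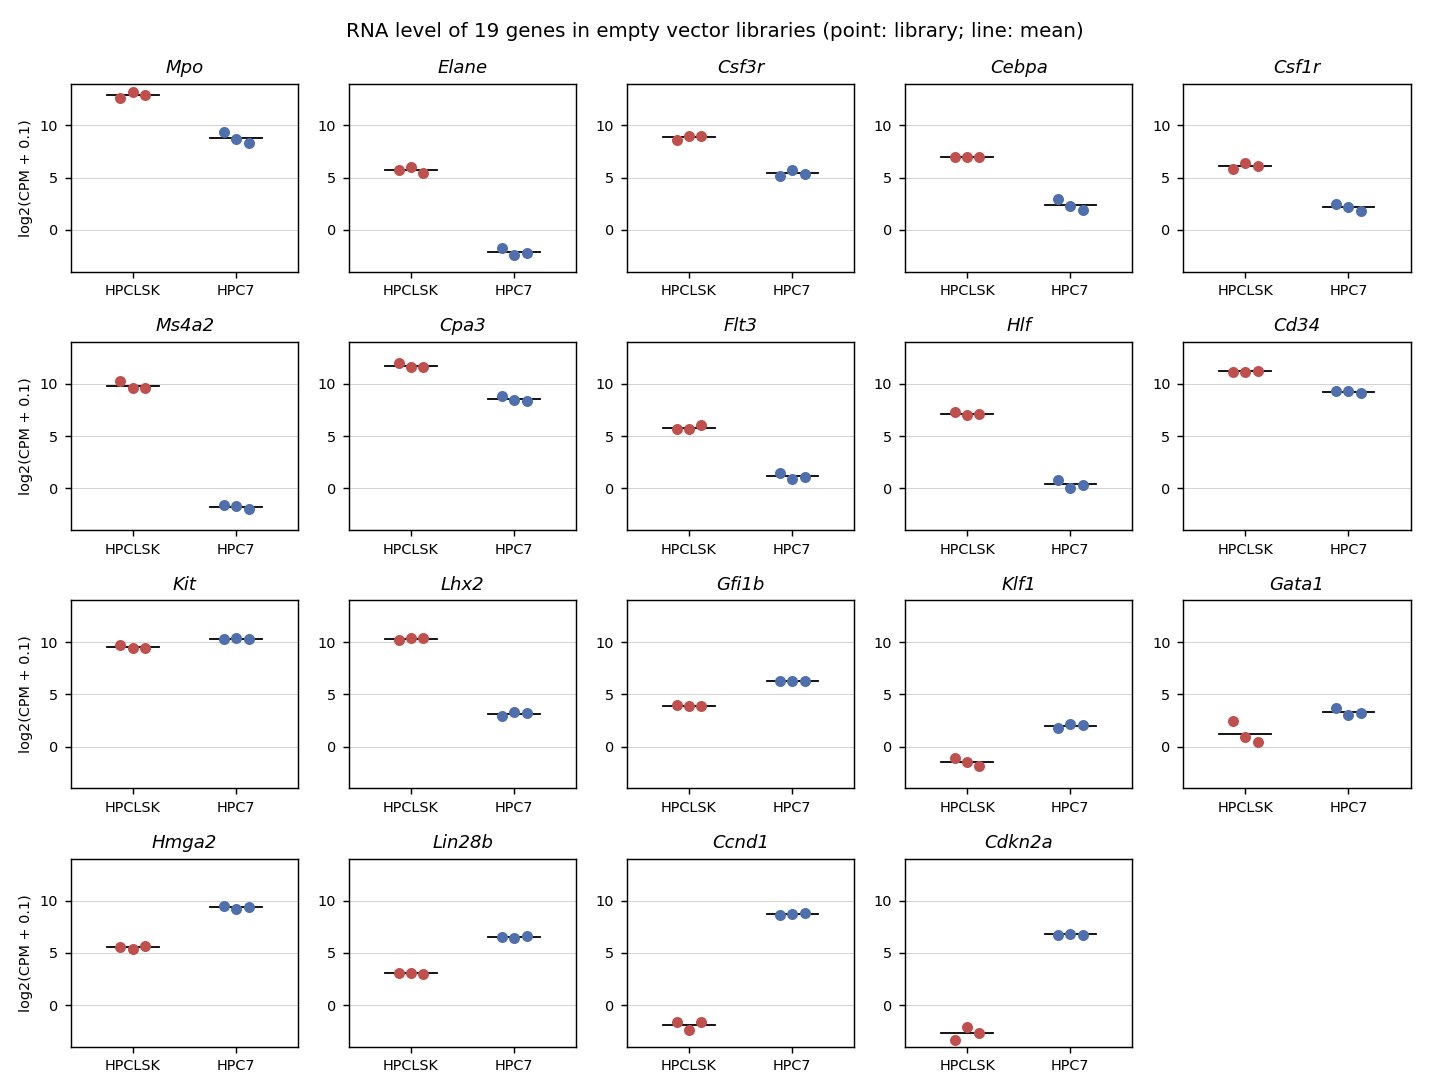
RNA level of 19 genes in each empty vector library, as log2(CPM + 0.1), with HPCLSK left and HPC7 right; each point is a library and the line is the mean of the 3 log2 values. Granulocyte, monocyte, mast cell and most stem cell genes lie higher in HPCLSK, while Kit, Gfi1b, Klf1, Gata1, Hmga2, Lin28b, Ccnd1 and Cdkn2a lie higher in HPC7.

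Granulocyte genes were higher in HPCLSK in 85.7% of tested primary granule genes and 91.7% of tested secondary granule genes, against 22.8% of all genes tested. Of 14 tested primary granule genes 12 were higher in HPCLSK and 0 lower, with a median log2 difference of 5.11. Mpo, the myeloperoxidase of azurophil granules (chromosome 11 at 87793581 to 87804413), had 6250, 9660 and 7860 CPM in HPCLSK and 658, 415 and 318 CPM in HPC7. It was abundant in HPCLSK and well detected in HPC7, with a log2 difference of 4.10 ± 0.27 (adjusted p = 6.0e-11). The serine protease genes were low in HPC7, with Ctsg and Elane near 0. Ctsg, cathepsin G, had 658, 879 and 759 CPM in HPCLSK and 2 counts over the HPC7 libraries, a ratio of 32800 (interval 9080 to 271000). Elane, neutrophil elastase, had 52.8, 66.2 and 43.7 CPM in HPCLSK and 0.193, 0.0855 and 0.117 CPM in HPC7 (8.64 ± 0.75, adjusted p = 1.0e-08). Prtn3, proteinase 3, had 704, 973 and 824 CPM in HPCLSK and 7.99, 8.25 and 8.13 CPM in HPC7 (6.68 ± 0.19, adjusted p = 1.9e-16). Elane and Prtn3 lie side by side on chromosome 10, and in HPCLSK Prtn3 had 482 CPM per kb of exon and Elane 55.1. Calr and Ctsc, the members of the list not called, are also used outside granules.

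Secondary granule and maturation genes were higher in 22 of 24 tested cases and lower in 1, with a median log2 difference of 4.96, or 3.63 with genes at 0 counts in HPC7 at their bound. Their levels in HPCLSK were modest and uneven between libraries. Lcn2, lipocalin 2, had 25.2, 70.0 and 53.9 CPM in HPCLSK and 0.0386, 0.0428 and 0.0874 CPM in HPC7 (9.61 ± 0.62, adjusted p = 2.0e-10). Ngp, neutrophilic granule protein, had 24.4, 107 and 66.0 CPM in HPCLSK and 2 counts in HPC7, a ratio of 3050 (interval 843 to 25200). Chil3, a chitinase-like secreted protein, had 35.7, 165 and 105 CPM in HPCLSK and 0 counts in HPC7, at least 3150-fold higher. HPCLSK replicate 1 was lowest for each of these maturation genes. Csf3r, the G-CSF receptor, had 402, 495 and 493 CPM in HPCLSK and 36.7, 53.5 and 40.9 CPM in HPC7 (3.41 ± 0.11, adjusted p = 6.3e-16). The chemokine receptor gene Cxcr2 was the exception, lower in HPCLSK at 4.16, 5.93 and 4.97 CPM against 14.6, 16.3 and 15.8 CPM in HPC7 (-1.60 ± 0.17, adjusted p = 6.7e-08), and it was higher in HPCLSK with both other vectors. Ly6g, which marks mature mouse neutrophils, had 0 counts in both lines.

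Of 19 tested myeloid transcription factor genes 11 were higher in HPCLSK (57.9%) and 2 lower (10.5%), or 4 lower without HPCLSK replicate 1. The shares of all genes tested were 22.8% and 13.6%. Cebpa, the factor of granulocyte commitment, had 126, 126 and 123 CPM in HPCLSK and 7.72, 4.75 and 3.58 CPM in HPC7 (4.57 ± 0.18, adjusted p = 2.5e-14). Spi1, which encodes PU.1, had 165, 178 and 168 CPM in HPCLSK and 66.0, 70.5 and 64.6 CPM in HPC7, a smaller difference of 1.35 ± 0.06 (adjusted p = 2.1e-13). Cebpe, which drives secondary granule genes, had 6.25, 8.25 and 6.19 CPM in HPCLSK and 0.733, 0.727 and 0.612 CPM in HPC7 (3.34 ± 0.32, adjusted p = 1.4e-08). Gfi1, a repressor needed for neutrophil development, had 75.3, 58.7 and 60 CPM in HPCLSK and 0.618, 1.45 and 0.787 CPM in HPC7 (6.12 ± 0.31, adjusted p = 9.7e-13). Id2, an inhibitor of basic helix-loop-helix factors, was lower in HPCLSK, at 2.08, 3.39 and 2.49 CPM against 64.7, 64.4 and 70.7 CPM in HPC7.

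Monocyte, macrophage and dendritic genes were higher in 19 of 22 tested cases (86.4%) and lower in 2 (9.09%), with a median of 3.96. Among all genes tested 22.8% were higher and 13.6% lower. Csf1r, the M-CSF receptor, had 56.3, 84.9 and 69.9 CPM in HPCLSK and 5.44, 4.53 and 3.41 CPM in HPC7 (4.01 ± 0.40, adjusted p = 2.2e-08). Irf8, the interferon regulatory factor of monocyte and dendritic fate, had 14.9, 24.1 and 19.3 CPM in HPCLSK and 1.35, 2.91 and 1.72 CPM in HPC7 (3.32 ± 0.27, adjusted p = 1.3e-09). Ly6c2, a marker of inflammatory monocytes, had 26.6, 61.2 and 49.4 CPM in HPCLSK and 1 count over the HPC7 libraries, a ratio of 4060 (interval 729 to 161000). Fcgr1, the high-affinity IgG receptor, was lower in HPCLSK, at 2.60, 2.14 and 2.25 CPM against 7.53, 9.62 and 8.83 CPM in HPC7. In these bulk libraries a larger share of cells of a lineage and more RNA per cell cannot be told apart.

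Mast cell, basophil and eosinophil genes were higher in HPCLSK in 12 of 19 tested cases (63.2%) and lower in 1 (5.26%), with a median of 2.32. Among all genes tested the shares were 22.8% and 13.6%. Ms4a2, the beta chain of the IgE receptor (chromosome 19 at 11615523 to 11623719), had 1200, 751 and 798 CPM in HPCLSK and 0.232, 0.214 and 0.146 CPM in HPC7 (12.18 ± 0.39, adjusted p = 9.5e-16). Its alpha chain gene Fcer1a had 348, 188 and 226 CPM in HPCLSK and 0 counts in HPC7, at least 6720-fold higher. Both chains of the receptor thus had RNA in HPCLSK and next to none in HPC7. Hdc, histidine decarboxylase, had 667, 561 and 536 CPM in HPCLSK and 1.62, 1.58 and 1.28 CPM in HPC7 (8.64 ± 0.19, adjusted p = 4.5e-18). Cpa3, mast cell carboxypeptidase, was expressed in both lines, at 4090, 3060 and 3120 CPM in HPCLSK and 455, 359 and 324 CPM in HPC7 (3.17 ± 0.13, adjusted p = 5.9e-14). HPCLSK replicate 1 was highest for Ms4a2, Fcer1a, Hdc and Cpa3. Of the secretory granule proteases, Mcpt8 of basophils had 51.1, 69.4 and 62.7 CPM in HPCLSK and 0 counts in HPC7. The proteases of mature mast cells were at or near 0 in both lines, with Mcpt1 and Mcpt2 at 0 in HPCLSK and Mcpt4 at a mean of 0.223 CPM in HPCLSK and 0.0285 CPM in HPC7. Gata2, a factor shared by stem and mast cells, had 453, 283 and 303 CPM in HPCLSK and 170, 179 and 175 CPM in HPC7. Its log2 difference of 0.98 ± 0.14 (adjusted p = 4.3e-06) fell just short of the minimum for a call.

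Erythroid genes went the other way. Of 25 tested, 17 were lower in HPCLSK (68%, against 13.6% of all genes tested) and 4 higher (16%, against 22.8%). The median was -3.82, or -2.38 with genes at 0 counts at their bound. Klf1, the Kruppel-like factor of red cells (chromosome 8 at 84901928 to 84905291), had 0.372, 0.268 and 0.173 CPM in HPCLSK and 3.36, 4.53 and 4.08 CPM in HPC7 (-3.89 ± 0.32, adjusted p = 1.6e-09). Gata1 had 5.35, 1.74 and 1.27 CPM in HPCLSK and 12.9, 8.30 and 9.03 CPM in HPC7 (-1.96 ± 0.32, adjusted p = 1.5e-05). Replicate 1 was the highest library of its line for Gata1 in both lines, and the groups did not overlap. Gfi1b, a repressor of the erythroid and megakaryocyte lineages, had 16.2, 14.4 and 14.5 CPM in HPCLSK and 77.6, 78.7 and 76.6 CPM in HPC7 (-2.38 ± 0.06, adjusted p = 5.6e-17). Epor, the erythropoietin receptor, had 0.669, 0.268 and 0.347 CPM in HPCLSK and 6.06, 5.64 and 5.33 CPM in HPC7 (-3.82 ± 0.25, adjusted p = 5.0e-11).

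Products of red cells were scarce in both lines. The adult beta globin gene Hbb-bs had 0 counts in HPCLSK and 17.6, 18.4 and 18.8 CPM in HPC7, at least 325-fold lower in HPCLSK. Hbb-bt, its near-identical neighbour, was higher in HPCLSK, with 1.04, 0.535 and 0.925 CPM against 0.193, 0.0428 and 0.117 CPM in HPC7 (2.70 ± 0.59, adjusted p = 3.9e-04). Reads may be divided unevenly between these copies, so neither direction is certain for beta globin. Car1, carbonic anhydrase 1, had 0 counts in HPCLSK and 2.24, 1.92 and 2.59 CPM in HPC7, at least 40.7-fold lower in HPCLSK. The haem enzyme gene Alas2 was under the filter, at 0 in HPCLSK and 0.0594 CPM in HPC7. Among the 4 genes higher in HPCLSK, Nfe2, a factor of erythroid and megakaryocyte genes, had a log2 difference of 1.61 ± 0.10 (adjusted p = 1.6e-11).

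Megakaryocyte and platelet genes were mixed, with 8 of 23 higher in HPCLSK (34.8%), 5 lower (21.7%) and 10 not called. Among all genes tested 22.8% were higher and 13.6% lower. Itga2b, the platelet integrin CD41, had 1410, 983 and 1040 CPM in HPCLSK and 205, 227 and 231 CPM in HPC7 (2.37 ± 0.14, adjusted p = 1.2e-11). The receptor gene F2r had 421, 327 and 362 CPM in HPCLSK and 58.2, 57.9 and 57.9 CPM in HPC7 (2.67 ± 0.09, adjusted p = 3.8e-15). Gp9 of the von Willebrand factor receptor was lower, at 9.74, 6.82 and 6.71 CPM in HPCLSK and 31.6, 45.5 and 44.7 CPM in HPC7.

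Lymphoid genes were few. Of 29 B-lymphoid and early lymphoid genes 14 were tested, with 5 higher and 5 lower in HPCLSK (35.7% each). Over all genes tested 22.8% were higher and 13.6% lower. Ebf1 and Pax5 were at or near 0 in both lines. Il7r had 0.446, 0.446 and 0.578 CPM in HPCLSK and 0 counts in HPC7, at least 13.6-fold higher. Mef2c, a factor of lymphoid priming, was lower in HPCLSK, at 4.54, 6.38 and 6.71 CPM against 77.5, 78.5 and 89.8 CPM in HPC7 (-3.78 ± 0.10, adjusted p = 3.7e-17). Satb1, a chromatin organiser of lymphoid progenitors, had 3.35, 2.90 and 2.95 CPM in HPCLSK and 89, 88.6 and 86.4 CPM in HPC7 (-4.86 ± 0.10, adjusted p = 1.8e-18). Of 10 tested T and natural killer cell genes 7 were lower (70%) and 0 higher. The T cell receptor complex genes Cd3e, Cd3d and Cd3g were at or near 0 in both lines. Of 21 stromal genes 7 were tested, and the defining genes Col1a2, Col3a1 and Pdgfra were at 0 in both, with Col1a1 at a mean of 0.0446 CPM in HPCLSK and 0 in HPC7.

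**Figure D2:**
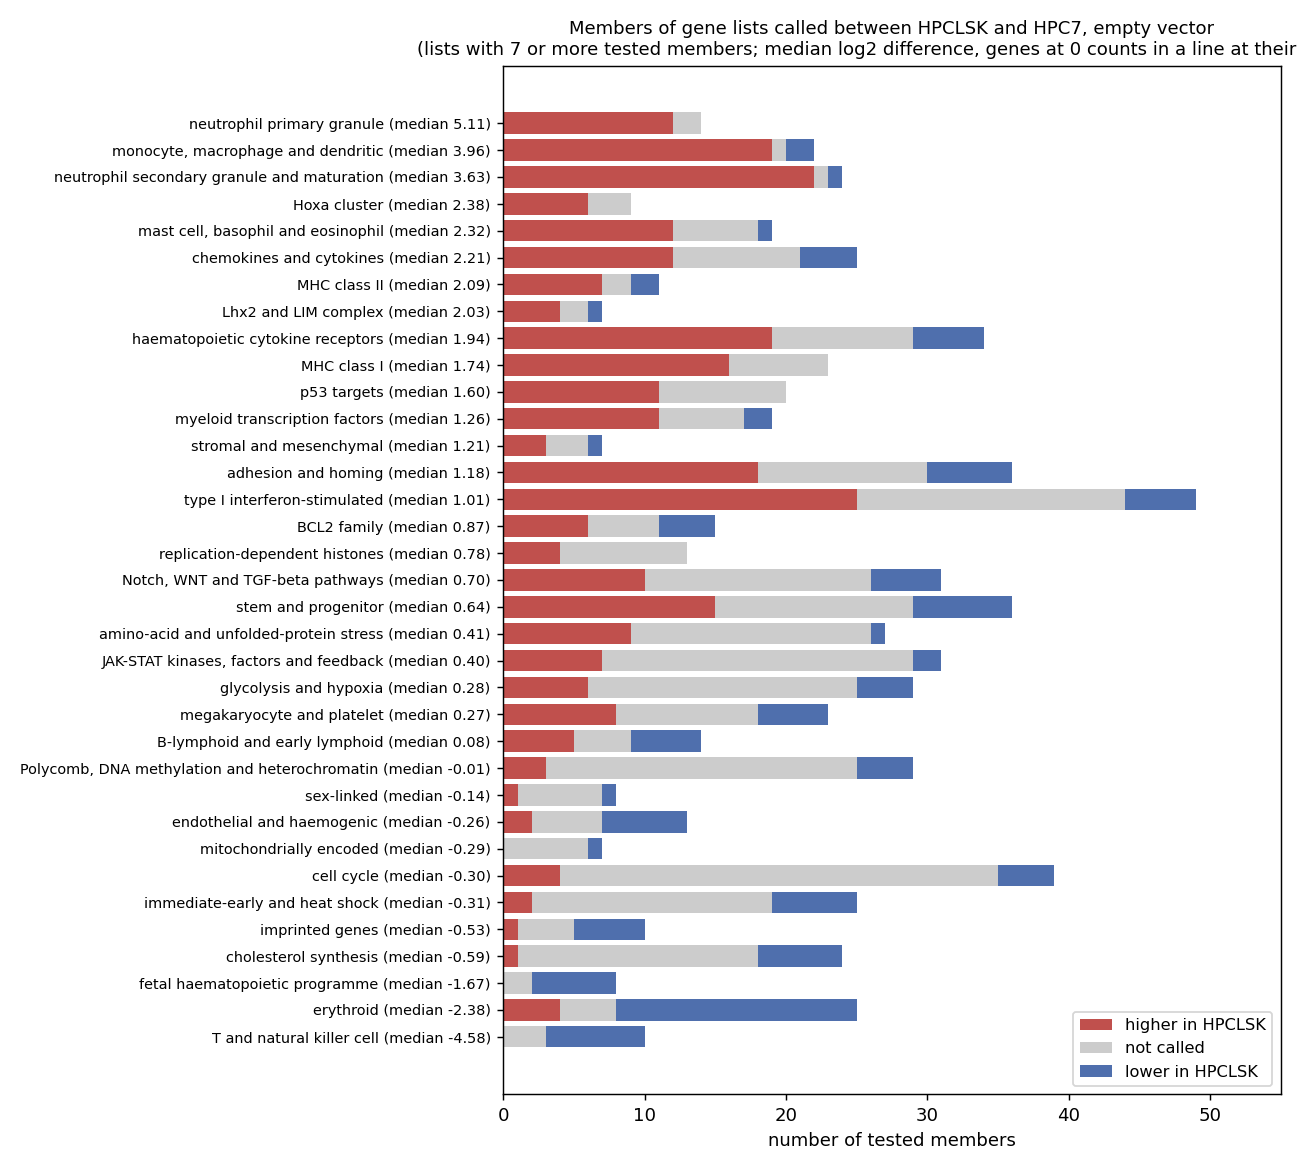
Number of tested members of each gene list that were called higher in HPCLSK (left), not called (middle) or called lower (right), for the 35 lists with at least 7 tested members; the median log2 difference stands beside each name, with genes at 0 counts in a line at their bound. Granule and monocyte lists are at the top, and erythroid, fetal and T cell lists at the bottom.

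Promoter sequences of some genes of the granule, erythroid and mast cell lists are shown because most tested members of each list went one way. They were chosen after their values were seen. Each runs from 250 bases before to 50 bases after the gene start given in the RefSeq table of GRCm38.p6. For Mpo and Klf1 that start lies inside the gene as placed above by the annotation used for counting. In the granule promoters capitals mark GAGGAA, the core of a PU.1 site, and in the others GATAA or its reverse complement TTATC, the core of a GATA site. Mpo lies at chr11:87793534-87793833 (plus strand), Elane at chr10:79886062-79886361 (plus strand), Ctsg at chr14:56102525-56102824 (minus strand), Klf1 at chr8:84901732-84902031 (plus strand), Epor at chr9:21963527-21963826 (minus strand) and Ms4a2 at chr19:11623670-11623969 (minus strand).
Mpo: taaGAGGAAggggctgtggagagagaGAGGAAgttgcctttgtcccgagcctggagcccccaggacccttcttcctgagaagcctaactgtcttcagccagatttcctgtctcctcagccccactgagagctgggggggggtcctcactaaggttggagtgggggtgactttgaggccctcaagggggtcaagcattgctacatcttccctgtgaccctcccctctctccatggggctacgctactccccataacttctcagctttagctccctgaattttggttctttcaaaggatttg
Elane: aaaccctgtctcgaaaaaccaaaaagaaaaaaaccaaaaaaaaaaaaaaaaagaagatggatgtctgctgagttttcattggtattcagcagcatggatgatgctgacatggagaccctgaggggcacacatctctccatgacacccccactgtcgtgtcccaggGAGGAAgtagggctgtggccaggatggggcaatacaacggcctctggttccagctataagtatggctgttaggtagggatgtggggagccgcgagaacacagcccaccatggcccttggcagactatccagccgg
Ctsg: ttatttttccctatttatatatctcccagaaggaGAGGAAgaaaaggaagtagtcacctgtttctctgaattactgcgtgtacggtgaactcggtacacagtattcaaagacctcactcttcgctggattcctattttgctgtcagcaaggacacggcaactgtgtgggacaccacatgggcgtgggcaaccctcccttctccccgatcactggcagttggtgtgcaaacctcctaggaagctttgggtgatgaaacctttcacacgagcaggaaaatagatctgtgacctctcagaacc
Klf1: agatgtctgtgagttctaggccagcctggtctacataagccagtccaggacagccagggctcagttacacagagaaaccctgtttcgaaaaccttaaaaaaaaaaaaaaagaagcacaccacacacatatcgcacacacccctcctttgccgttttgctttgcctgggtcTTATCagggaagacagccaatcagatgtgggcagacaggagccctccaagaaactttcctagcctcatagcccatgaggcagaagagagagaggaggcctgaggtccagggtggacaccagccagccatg
Epor: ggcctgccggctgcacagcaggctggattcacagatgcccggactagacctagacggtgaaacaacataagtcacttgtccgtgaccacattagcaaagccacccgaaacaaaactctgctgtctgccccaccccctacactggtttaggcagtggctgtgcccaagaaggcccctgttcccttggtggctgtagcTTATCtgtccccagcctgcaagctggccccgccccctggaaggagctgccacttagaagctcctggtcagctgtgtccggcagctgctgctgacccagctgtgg
Ms4a2: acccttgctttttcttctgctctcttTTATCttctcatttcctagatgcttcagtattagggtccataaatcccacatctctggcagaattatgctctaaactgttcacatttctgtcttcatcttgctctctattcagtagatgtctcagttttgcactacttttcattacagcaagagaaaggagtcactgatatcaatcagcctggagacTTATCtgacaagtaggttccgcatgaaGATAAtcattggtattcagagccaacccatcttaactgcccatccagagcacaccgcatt

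Searched on both strands, GAGGAA occurred in the promoters of 6 of 13 primary granule genes (46.2%) and of 31.3% of all 27025 genes in the table. The letters TTGCNNAA of a C/EBP site occurred in 3 of 13 (23.1%) and in 12.2% of all genes, but in none of the 3 granule promoters printed above. GATAA occurred in 16 of 22 erythroid promoters (72.7%), in 19 of 27 of the mast cell list (70.4%), in 1 of 13 of the granule list (7.69%) and in 28.4% of all genes. The motif CCACCC of Kruppel-like factors occurred in 16 of 22 erythroid promoters (72.7%) and in 34% of all genes. Each gene was counted once per motif, no motif contains another, and matches of different motifs may overlap. List members with a promoter in the table were searched whether or not their RNA was tested. Of further mast cell promoters, not printed, Cpa3 and Fcer1a held 1 GATAA match each and Hdc 0. A match describes the letters and is not evidence of binding. GATAA was found in a similar share of the mast cell list, whose tested members were mostly higher in HPCLSK, and of the erythroid list, whose tested members were mostly lower.

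Receptors that let a progenitor read its environment differed as well. Of 34 tested haematopoietic cytokine receptor genes 19 were higher in HPCLSK (55.9%) and 5 lower (14.7%), with a median of 1.94. Among all genes tested these shares were 22.8% and 13.6%. Csf2ra, the alpha chain of the GM-CSF receptor, had 21.9, 24.9 and 23.9 CPM in HPCLSK and 0.193, 0.0855 and 0.117 CPM in HPC7 (7.43 ± 0.23, adjusted p = 4.9e-16). Il10ra, the interleukin-10 receptor chain that signals through STAT3, had 67.7, 78.2 and 87.2 CPM in HPCLSK and 1.85, 3.85 and 3.70 CPM in HPC7 (4.62 ± 0.17, adjusted p = 6.2e-15). Il9r, the interleukin-9 receptor, was nearly absent from HPCLSK, with 0.446, 0.268 and 0.116 CPM in HPCLSK and 128, 124 and 120 CPM in HPC7 (-8.85 ± 0.14, adjusted p = 3.5e-20). Il4ra, the interleukin-4 receptor, was lower in HPCLSK by -1.44 ± 0.09 (adjusted p = 1.7e-11). In CPM per kb of exon, Csf1r stood at 14.4 in HPCLSK and 0.913 in HPC7 and Csf2ra at 12.7 in HPCLSK and 0.0712 in HPC7.

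Downstream of the receptors, 7 of 31 JAK-STAT genes were higher in HPCLSK (22.6%, against 22.8% of all genes tested), 2 were lower (6.45%, against 13.6%) and 22 were not called. Stat3 had 365, 341 and 358 CPM in HPCLSK and 223, 236 and 216 CPM in HPC7, a log2 difference of 0.66 ± 0.05 (adjusted p = 5.7e-10) under the minimum for a call. Stat4 was higher in HPCLSK, with 57.1, 55.2 and 54.3 CPM against 19.2, 19.1 and 15.4 CPM in HPC7 (1.64 ± 0.08, adjusted p = 7.8e-13). Socs3, the feedback inhibitor of cytokine signalling, had 34.5, 28.5 and 22.7 CPM in HPCLSK and 3.44, 3.34 and 2.74 CPM in HPC7 (3.18 ± 0.15, adjusted p = 3.3e-13). Socs2, another feedback gene, was lower, at 1.12, 1.25 and 1.62 CPM in HPCLSK and 4.05, 4.02 and 3.87 CPM in HPC7.

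Interferon-stimulated genes were higher in HPCLSK in 25 of 49 tested cases (51%) and lower in 5 (10.2%), with a median of 1.01. Among all genes tested 22.8% were higher and 13.6% lower. The summed level of the list was 2280 to 2490 CPM in HPCLSK and 1140 to 1240 CPM in HPC7. Ifitm1, an interferon-induced membrane protein, had 128, 155 and 138 CPM in HPCLSK and 1.24, 2.39 and 1.95 CPM in HPC7 (6.24 ± 0.19, adjusted p = 3.5e-16). Irf7, the master factor of interferon production, had 5.73, 10.1 and 7.46 CPM in HPCLSK and 1 count in HPC7, a ratio of 679 (interval 121 to 26900). Usp18, the protease that removes ISG15, was lower in HPCLSK, at 3.87, 6.78 and 6.13 CPM against 80.8, 100 and 83.9 CPM in HPC7 (-3.93 ± 0.14, adjusted p = 5.1e-15). The list thus did not move as one, and Stat2, Irf1 and Isg15 were not called.

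MHC class I genes were higher in 16 of 23 tested cases (69.6%) and lower in 0, against 22.8% and 13.6% of all genes tested. H2-K1, a classical heavy chain, had 488, 470 and 467 CPM in HPCLSK and 20.1, 31.8 and 24.4 CPM in HPC7 (4.23 ± 0.13, adjusted p = 4.7e-16). H2-D1 had 338, 322 and 324 CPM in HPCLSK and 124, 159 and 141 CPM in HPC7 (1.22 ± 0.09, adjusted p = 3.3e-10). The light chain gene B2m had 484, 583 and 560 CPM in HPCLSK and 316, 362 and 336 CPM in HPC7 and was not called. H2 genes share sequence and vary between strains, so that their split of reads is uncertain. Of 11 tested MHC class II genes 7 were higher (63.6%) and 2 lower (18.2%), and H2-Ab1 and H2-Aa, the chains of 1 receptor, went opposite ways. H2-Ab1 had 8.03, 7.63 and 7.52 CPM in HPCLSK and 0 counts in HPC7, while H2-Aa had 3 counts in HPCLSK and 1.62, 0.855 and 1.86 CPM in HPC7, a ratio of 26.7 (interval 8.93 to 131) toward HPC7.

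Surface antigens of homing and adhesion were higher in 18 of 36 tested cases (50%) and lower in 6 (16.7%). Among all genes tested the shares were 22.8% and 13.6%. Emb, the embigin gene of early progenitors and myeloid cells, had 259, 384 and 336 CPM in HPCLSK and 1 count in HPC7, a ratio of 28100 (interval 5050 to 1110000). Cxcr3, a T cell chemokine receptor, was lower, at 0.818, 1.52 and 1.56 CPM in HPCLSK and 19.3, 26.5 and 25 CPM in HPC7. Of 14 Ly6 genes 4 were tested. Ly6e had 1460, 1280 and 1300 CPM in HPCLSK and 0.425, 0.513 and 0.524 CPM in HPC7 (11.41 ± 0.15, adjusted p = 3.4e-21). Ly6 and Ifitm genes are families of similar sequence, so that reads may be split between members.

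Of 39 tested cell-cycle genes 4 were higher in HPCLSK (10.3%), 4 lower (10.3%) and 31 not called. These shares were below those over all genes tested, 22.8% higher and 13.6% lower. The lower ones are the cyclin genes Ccnd1, Ccnd2 and Ccne1 and the tumour suppressor gene Cdkn2a. Ccnd1, cyclin D1, had 0.223, 0.0892 and 0.231 CPM in HPCLSK and 401, 420 and 448 CPM in HPC7 (-11.24 ± 0.14, adjusted p = 3.4e-21). Ccnd2 was also lower, at 254, 236 and 246 CPM in HPCLSK and 459, 497 and 526 CPM in HPC7 (-1.01 ± 0.10, adjusted p = 1.4e-08). Cdk6, the kinase partner of D cyclins, was higher at 1100, 1150 and 1180 CPM in HPCLSK and 443, 389 and 410 CPM in HPC7 (1.47 ± 0.06, adjusted p = 4.7e-14). Mki67, a marker of dividing cells, was not called, at a mean of 627 CPM in HPCLSK and 865 CPM in HPC7.

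The tumour suppressor gene Cdkn2a (chromosome 4 at 89274471 to 89294653) had 0, 0.134 and 0.0578 CPM in HPCLSK and 107, 111 and 107 CPM in HPC7 (-10.39 ± 0.14, adjusted p = 6.3e-21). Its neighbours were looked at after this was seen. Mtap, at 89137122 to 89181081, went the opposite way, with 80.1, 77.5 and 82.4 CPM in HPCLSK and 0 counts in HPC7, at least 2220-fold higher. Hacd4, at 88396144 to 88438928, had 63.8, 54.2 and 54.4 CPM in HPCLSK and 3 counts in HPC7, a ratio of 1580 (interval 540 to 7670). Klhl9, which lies between Hacd4 and Mtap at 88718292 to 88722465, had 79.6, 86.9 and 99.0 CPM in HPCLSK and 70.4, 58.0 and 66.9 CPM in HPC7 and was not called. Along this stretch of HPC7 with empty vector, genes at 0 or 3 counts thus alternated with genes of ample RNA.

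Of 20 tested p53 target genes 11 were higher in HPCLSK (55%, against 22.8% of all genes tested) and 0 lower (against 13.6%). Perp, an apoptosis effector, had 236, 187 and 199 CPM in HPCLSK and 0 counts in HPC7, at least 5660-fold higher. Pmaip1, the BH3-only protein NOXA, had 87.3, 74.1 and 76.4 CPM in HPCLSK and 0 counts in HPC7, at least 2180-fold higher. Zmat3, an RNA-binding p53 target, had 85.9, 85.9 and 90.1 CPM in HPCLSK and 1.70, 1.20 and 1.14 CPM in HPC7 (6.03 ± 0.14, adjusted p = 1.5e-17). Mdm2, the feedback inhibitor, and Trp53 itself were not called, at means of 84.2 CPM in HPCLSK and 92.1 CPM in HPC7 for Mdm2 and 229 CPM in HPCLSK and 244 CPM in HPC7 for Trp53. In the BCL2 family 6 of 15 were higher (40%) and 4 lower (26.7%). Mcl1 was higher (1.36 ± 0.08, adjusted p = 9.9e-12), while Bcl2l1, which encodes BCL-XL, had 61.3, 65.5 and 66.4 CPM in HPCLSK and 157, 165 and 156 CPM in HPC7 (-1.30 ± 0.04, adjusted p = 3.0e-15).

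Of 29 genes of Polycomb, DNA methylation and heterochromatin 22 were not called, 3 were higher (10.3%) and 4 lower (13.8%). Over all genes tested the shares were 22.8% and 13.6%. Dnmt3b, a de novo DNA methyltransferase abundant in embryonic cells, had 64.6, 61.5 and 63.2 CPM in HPCLSK and 593, 537 and 541 CPM in HPC7 (-3.14 ± 0.10, adjusted p = 1.9e-15). Tet1, a methylcytosine dioxygenase, had 2.68, 1.56 and 1.5 CPM in HPCLSK and 35.2, 33.1 and 37.8 CPM in HPC7 (-4.26 ± 0.15, adjusted p = 4.3e-15). Dnmt1, Dnmt3a, Tet2 and Ezh2 were not called.

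Some genes had counts in 1 line alone. At least 5 CPM in HPCLSK with 0 counts in HPC7 was found for 152 genes, of which 110 also had 0 counts in the 6 HPC7 libraries with other vectors and 145 had at most 3 counts there. The reverse held for 37 genes, of which 23 had 0 counts in the 6 other HPCLSK libraries and 32 at most 3. Of genes with an official-style symbol (predicted genes, Rik clones and pseudogenes aside), the 10 called genes with the largest difference include Adgrl4, an adhesion receptor of endothelium, with 871, 667 and 733 CPM in HPCLSK and 0 counts in HPC7, at least 20600-fold higher. Wls, the carrier needed for WNT secretion, had 172, 175 and 167 CPM in HPCLSK and 0 counts in HPC7, at least 4790-fold higher. Vldlr, a lipoprotein and reelin receptor, had 120, 184 and 221 CPM in HPCLSK and 0 counts in HPC7, at least 5020-fold higher. Grk3, a receptor kinase, Auts2 and the mannosidase gene Man1a belong to the same 10 genes, with means of 204, 218 and 208 CPM in HPCLSK and 0 counts in HPC7.

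At the other end of the same ranking, Tfpi, the tissue factor pathway inhibitor, had 0 counts in HPCLSK and 102, 97.3 and 102 CPM in HPC7, at least 1780-fold lower in HPCLSK. Npnt, the matrix protein nephronectin, had 1 count in HPCLSK and 195, 214 and 230 CPM in HPC7, a ratio of 11400 (interval 2050 to 451000) toward HPC7. Pik3c2a, a class II phosphoinositide 3-kinase that most cells use, had 0 counts in HPCLSK and 38.5, 31.5 and 33.0 CPM in HPC7, at least 607-fold lower in HPCLSK. Ccdc8, Prr5, Obsl1, Agpat4, Nhs and Hbb-bs complete these 10 genes, with means from 0 to 0.0193 CPM in HPCLSK and from 18.3 to 118 CPM in HPC7.

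Of 8 tested sex-linked genes 1 was higher and 1 lower (12.5% each, against 22.8% and 13.6% of all genes tested). Y-linked Ddx3y was well detected in both lines, with 169, 151 and 151 CPM in HPCLSK and 112, 120 and 123 CPM in HPC7, and Xist was near 0 in both (means of 0.171 CPM in HPCLSK and 0.0434 CPM in HPC7). Kdm5d, at 897788 to 956786 of the Y chromosome, had 73.8, 76.1 and 73.2 CPM in HPCLSK and 0 counts in HPC7, at least 2080-fold higher. Uty, at 1096861 to 1245759, was lower in HPCLSK, with 2.23, 0.892 and 0.983 CPM against 30, 28.0 and 34.4 CPM in HPC7 (-4.59 ± 0.18, adjusted p = 1.7e-14), but higher with STAT3, where its mean was 24.2 CPM in HPCLSK and 3.10 CPM in HPC7. Eif2s3y, which lies between them, had 109, 113 and 114 CPM in HPCLSK and 56.9, 54.5 and 61.4 CPM in HPC7 and was not called.

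Along the genome, chromosome 3 stood apart. Over its 501 genes at 5 CPM or more in either line the median log2 difference was 0.84, against -0.04 over all 10148 such genes and -0.40 to 0.06 for the other 19 chromosomes. Chromosome 3 held 6.39, 6.32 and 6.32% of the counts in HPCLSK and 3.64, 3.61 and 3.64% in HPC7, with no overlap. In blocks of 10 Mb the shift covered 20 to 110 Mb, where 361 genes had a median of 1.02, a fold of 2.03, and 90.3% of them had a positive difference. In that stretch 184 genes were called higher and 11 lower. On either side the medians were 0.07 (23 genes, 0 to 20 Mb) and 0.05 (117 genes, 110 to 160 Mb). The middle stretch had medians of 0.96 and 1.14 in the STAT3 and the Y640F libraries. Its limits were placed after the values were seen. Without the genes of chromosome 3, 2869 genes were higher and 1800 lower.

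Smaller medians away from 0 were seen elsewhere. Chromosome 17 had a median of -0.40 over 537 genes, and -0.32 and -0.35 with STAT3 and Y640F. The part of chromosome 7 beyond 60 Mb had a median of -0.47 over 411 genes, against 0.17 over the 356 genes before it, and -0.44 and -0.42 with the other vectors. Chromosome 1 had a median of -0.31 over 598 genes with empty vector but 0.14 with STAT3 and 0.07 with Y640F. Chromosome 5 had a median of -0.25 over 655 genes with empty vector, and -0.62 and -0.53 with STAT3 and Y640F. The median of chromosome 2 (804 genes) was -0.12 at baseline, -0.21 in STAT3 libraries and -0.55 in Y640F libraries. Among genes named here, Cpa3, at its proximal edge, Mecom, Zmat3, Slc7a11, Mcl1, Fcgr1 and Chil3 lie within the shifted stretch of chromosome 3. Car1, Npnt, Tet2, Adgrl4 and Wls lie on chromosome 3 outside it.

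**Figure D3:**
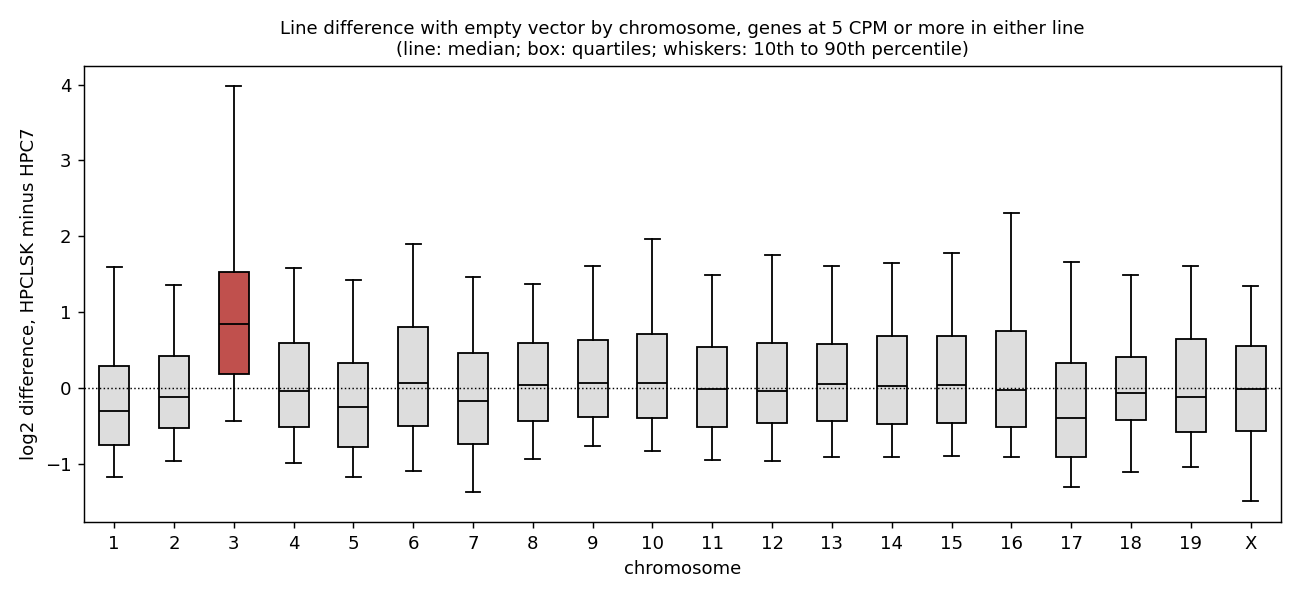
Log2 difference, HPCLSK minus HPC7 with empty vector, of genes at 5 CPM or more in either line, by chromosome; the line is the median, the box the quartiles and the whiskers the 10th and 90th percentiles. Chromosome 3, coloured, has a median of 0.84, while the other 19 medians lie between -0.40 and 0.06.

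The line difference was also read in the 12 libraries with STAT3 or Y640F, which share no library with the empty vector groups. The filter, the scaling and the estimate of spread were common to all 18 libraries, so the comparisons are not fully separate. Among STAT3 libraries 25.2% of genes tested were called higher in HPCLSK and 14.6% lower, and among Y640F libraries 24% were called higher and 16.1% lower. Of the 3163 genes higher at baseline 2329 (73.6%) were higher with both other vectors, and of the 1891 lower genes 1223 (64.7%) were lower with both. For differences over 8-fold these numbers were 1249 of 1348 and 601 of 682. All 12 primary granule genes and all 22 secondary granule genes higher at baseline were higher with both vectors, and 20 of 21 called erythroid genes kept their direction. Of the called mast cell genes 9 of 13 kept their direction with both, and of the called megakaryocyte genes 7 of 13. The same was true of 14 of 22 called stem and progenitor genes, 18 of 30 interferon-stimulated genes, 4 of 6 fetal genes, 3 of 6 imprinted genes and 0 of 2 Hoxb genes, against 3552 of all 5054 called genes (70.3%). Cpa3 differed by a log2 of 3.17 at baseline, 2.84 in STAT3 libraries and 0.71 in Y640F libraries, and Itga2b by 2.37 at baseline, 0.44 with STAT3 and 1.04 with Y640F. The difference of Hoxb4 was -4.61 at baseline, -2.58 with STAT3 and -0.68 with Y640F. Lhx2 differed by 7.18 at baseline, 8.38 with STAT3 and 8.53 with Y640F.

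**Figure D4:**
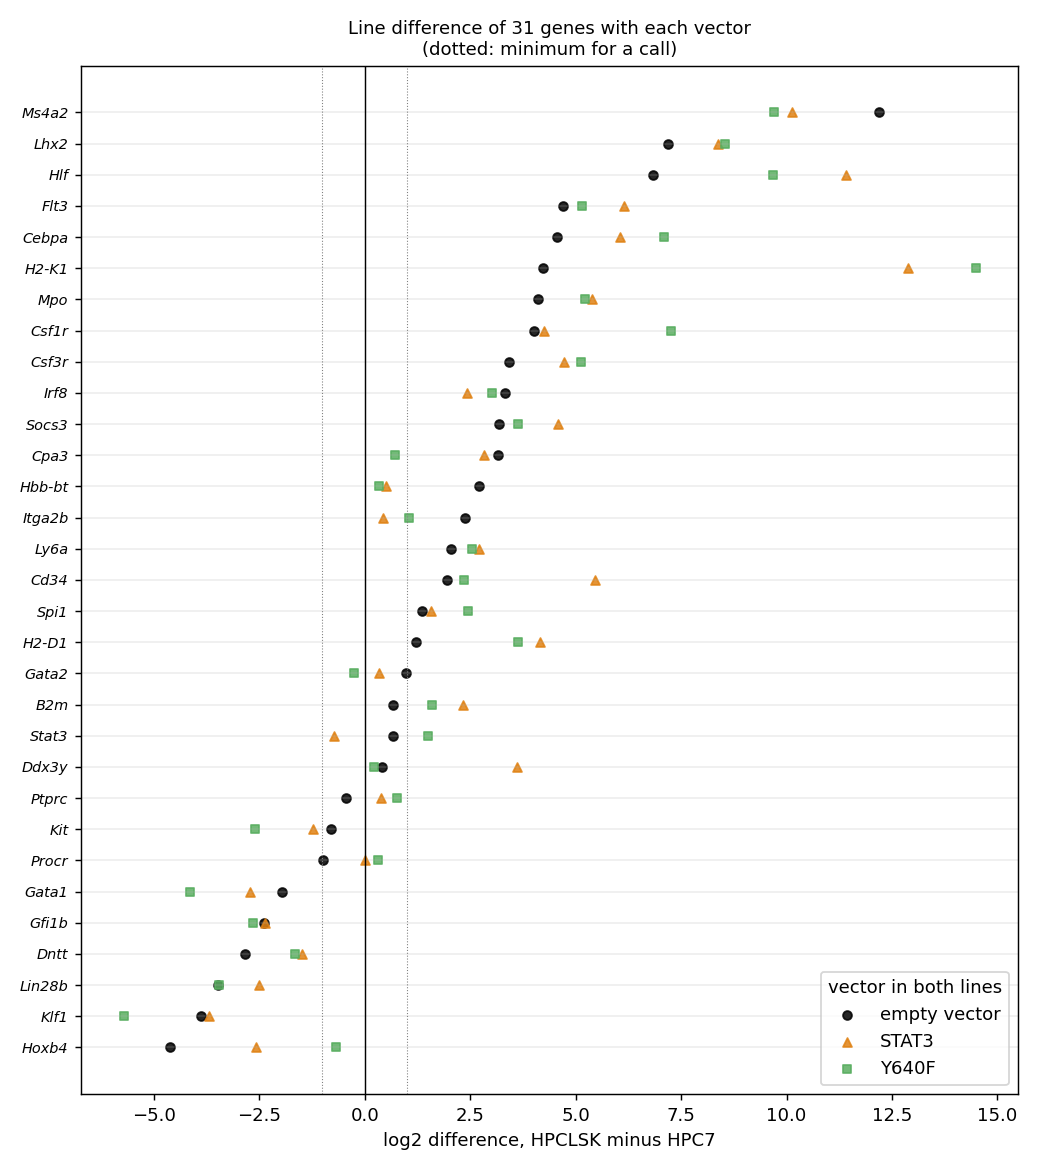
Log2 difference, HPCLSK minus HPC7, of 31 named genes that had counts in all 6 groups, with the empty vector (circles), STAT3 (triangles) and Y640F (squares) in both lines; dotted lines mark the minimum for a call. Most genes lie on the same side of 0 with every vector, while Stat3, Gata2, Ptprc and Procr cross it.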

How the data were processed

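RNA of 18 libraries was sequenced as single-end reads, and 6 of them carry the empty vector in HPCLSK or HPC7. The authors aligned reads with STAR after trimming with Trimmomatic, per the submitters' processing notes, and counted them on GRCm38 with GENCODE M13 annotation. The deposited values are raw counts per gene from featureCounts 1.5.1 with a reverse-strand setting, per the file headers. The sample labels name a TruSeq Stranded kit and the series text another kit. Of 50686 gene IDs 50376 were matched to symbols, 4639 of them without the version.

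Here all 18 libraries, in 6 groups, were fitted with edgeR 4.0.16 (R 4.3.3, limma 3.58.1): TMM scaling, filterByExpr, and its quasi-likelihood F test, so that all groups share the estimate of spread. P-values were adjusted by Benjamini and Hochberg's method over 13891 genes. A gene was called where the adjusted p was below 0.05 and the log2 difference at least 1 in size. The other vectors were tested in the same fit. In simulated data on 13365 genes, 98% of 100 genes changed by a log2 of 1.5 and 100% of 100 changed by 3 were recovered, with 3 false calls. Changed genes were picked above a minimum mean level, and every other gene had the same mean share in all libraries. The spread was that fitted to these libraries. Genes near 0 in 1 line, as many changed genes as here and a difference between sequencing runs were not simulated. Alternatives included DESeq2 1.42.0. Replicate numbers did not pair libraries (correlation of deviations from -0.018 to 0.021 for same numbers). Exact binomial intervals at 95% and floors of 3 counts cover counting error only. Named genes are key genes of the lists, the 10 called genes at each end of the log2 difference among genes with an official-style symbol (no Gm number, Rik, accession-like name or pseudogene suffix), given 5 CPM or more in the higher line and groups that do not overlap, and up to 5 called members per list and direction. Other genes were chosen after their values were seen. The members and lists were chosen with earlier results of these data known. The 12 samples that are not RNA libraries were not used here. Some genes that the naming rule selects are not reported here.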

Additional observations from a re-analysis of the deposited data

Results flagged for a closer look

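A number of genes of the lists were called in opposite directions in the line comparison with the empty vector and with another vector, and the difference between the comparisons passed an edgeR test (interaction contrast, Benjamini-Hochberg adjusted over all genes, 3 libraries a group). Because the genes were picked for opposite calls in the same libraries, a low p-value was nearly fixed by that choice and adds little. Such reversals were rare. Of the 3163 genes higher at baseline 6 were lower with STAT3 and 44 with Y640F. Of the 1891 lower genes 32 were higher with STAT3 and 50 with Y640F. Values are log2, HPCLSK minus HPC7. With STAT3, the chemokine receptor gene Cxcr2 stood at 1.10, against -1.60 with the empty vector, a difference of 2.70 (adjusted p = 5.3e-08). Y-linked Uty stood at 2.95 with STAT3, against -4.59 with the empty vector, a difference of 7.55 (adjusted p = 3.0e-14). Some other Y-linked RNA was also low in the HPC7 STAT3 libraries, at 12.3 CPM for Ddx3y, 6.92 CPM for Eif2s3y and 0.111 CPM for Gm29650, against 118, 57.6 and 1.11 CPM in the HPC7 empty vector libraries (means of 3). Y-linked Gm47283 was not, at 38.3 CPM in HPC7 with STAT3 and 32.9 CPM with the empty vector. Kdm5d had 0 counts in both. In HPCLSK, Uty averaged 24.2 CPM with STAT3 and 1.37 CPM with the empty vector.

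With Y640F, Cxcr2 stood at 1.78, against -1.60 with the empty vector, a difference of 3.38 (adjusted p = 8.4e-10). The cytokine genes behaved likewise: Ccl3 stood at 1.67 with Y640F, against -2.53 with the empty vector, a difference of 4.20 (adjusted p = 5.8e-09), and Tnf at 1.12 with Y640F, against -2.02 with the empty vector, a difference of 3.14 (adjusted p = 1.5e-09). The early response gene Egr3 stood at 2.66 with Y640F, against -2.50 with the empty vector, a difference of 5.16 (adjusted p = 3.2e-06). Igf2bp2, of the fetal list, stood at 1.27 with Y640F, against -1.92 with the empty vector, a difference of 3.19 (adjusted p = 2.7e-07). Imprinted Peg12 stood at 2.45 with Y640F, against -4.87 with the empty vector, a difference of 7.32 (adjusted p = 4.1e-12).

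The interferon-stimulated genes went both ways. Ifi27l2a stood at 1.76 with Y640F, against -1.09 with the empty vector, a difference of 2.85 (adjusted p = 8.9e-05). Rsad2 stood at -3.25 with Y640F, against 1.16 with the empty vector, a difference of -4.41 (adjusted p = 6.1e-09). The stress gene Trib3 stood at -1.0 with Y640F, against 1.52 with the empty vector, a difference of -2.52 (adjusted p = 0.002).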

How the results depend on the processing

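With adjusted p alone, 5774 genes were higher in HPCLSK and 5419 lower, and with a filter of 5 CPM in 3 libraries 1995 and 1094, fewer genes being tested, of which 2267 were shared with both other vectors (3552 as reported). Leaving out each library in turn gave 3166 to 3225 higher and 1922 to 2009 lower. A replicate block gave 3167 and 1888, although the numbers do not pair the libraries. The 6 libraries fitted alone gave 2801 and 1686, counts thinned to 9537258 per library 2710 and 1543, DESeq2's size factors 3188 and 1869, its Wald test 3175 and 1847, upper-quartile factors 3193 and 1866, no filter 3752 and 2358, and a test against a fold of 1.5 gave 3664 and 2738. Alternatives added after the data were seen gave 3185 and 1977 without HPCLSK replicate 1 and HPC7 replicate 1, and 2869 and 1800 without chromosome 3. No call reversed under these settings. Procr, Gata2 and Kit, which lie near the minimum for a call, passed it under some of them. Hbb-y, at 0 in HPCLSK and under 0.2 CPM in HPC7, lost its call without both replicates 1. With 3 libraries a group, sequenced apart by line, differences near a fold of 2 and genes under 1 CPM are the least certain.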

Other observations

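Over all genes tested, 22.8% were called higher in HPCLSK and 13.6% lower, and the shares of lists below are to be read beside these. Genes of amino-acid and unfolded-protein stress were higher in HPCLSK in 9 of 27 tested cases (33.3%) and lower in 1 (3.7%). Asns, asparagine synthetase, had 26.7, 50.4 and 52.7 CPM in HPCLSK and 0 counts in HPC7, at least 1260-fold higher. The cystine carrier gene Slc7a11 had 5.95, 17.7 and 19.1 CPM in HPCLSK and 0 counts in HPC7, at least 424-fold higher. HPCLSK replicate 1 was lowest for both. Of 24 cholesterol synthesis genes 6 were lower (25%) and 1 higher (4.17%). Of 29 glycolysis and hypoxia genes 6 were higher (20.7%) and 4 lower (13.8%), near the shares over all genes tested. Vegfa, the endothelial growth factor, had 34.2, 33.3 and 34.6 CPM in HPCLSK and 0.463, 0.599 and 0.437 CPM in HPC7 (6.10 ± 0.16, adjusted p = 8.6e-17). The glucose transporter gene Slc2a3 was lower, at 20.5, 15.4 and 15.6 CPM in HPCLSK and 178, 186 and 176 CPM in HPC7 (-3.41 ± 0.10, adjusted p = 3.5e-16).

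Secreted and signalling genes differed as well. Of 25 chemokine and cytokine genes 12 were higher in HPCLSK (48%) and 4 lower (16%). Il6 had 6.62, 6.60 and 7.11 CPM in HPCLSK and 0.154, 0.214 and 0.175 CPM in HPC7 (5.20 ± 0.24, adjusted p = 3.3e-13). Ltb, lymphotoxin beta, was lower, at 1.49, 0.669 and 0.694 CPM in HPCLSK and 28.5, 29.2 and 29.8 CPM in HPC7. Of 31 Notch, WNT and TGF-beta pathway genes 10 were higher (32.3%) and 5 lower (16.1%). Notch3 had 33.1, 27.9 and 28.2 CPM in HPCLSK and 1.43, 0.684 and 0.350 CPM in HPC7 (5.23 ± 0.33, adjusted p = 3.1e-11), while its ligand gene Jag2 had 1.04, 0.714 and 0.809 CPM in HPCLSK and 34.5, 45.4 and 45.5 CPM in HPC7 (-5.65 ± 0.17, adjusted p = 4.0e-16). Smad1 was higher and Smad3 lower, at 43.0, 42.5 and 46.3 CPM in HPCLSK and 164, 187 and 194 CPM in HPC7 for Smad3. Of 25 immediate-early and heat shock genes 2 were higher (8%) and 6 lower (24%). The chaperone gene Hspa8 was higher (1.63 ± 0.08, adjusted p = 6.5e-13) and its partner Hsph1 lower (-2.52 ± 0.09, adjusted p = 3.1e-15). Of 13 replication-dependent histone genes, whose copies are alike in sequence, 4 were higher (30.8%) and 0 lower. Of 7 mitochondrially encoded genes 0 were higher and 1 lower (14.3%).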
